A study of Felis catus with 25 samples.

Results

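The genes of glutathione, peroxiredoxin and thioredoxin chemistry were followed in cultured corneal stromal fibroblasts of the domestic cat (Felis catus), from untreated cells through myofibroblasts to cells given 1 of 3 drug treatments. They were chosen by name, with earlier results of these data known. The rule took symbols that begin with GST and a class letter (A, K, M, O, P, T or Z). It also took those that begin with GCL, GPX, PRDX, TXN, MGST or GLRX, and GSS, GSR and SRXN1. Of the 13949 gene symbols with deposited read counts, 42 met this rule. A count was present in at least 1 library for 41 of them, and 38 passed the filter on low counts and were tested. By role, 4 of the 42 genes serve glutathione synthesis and reduction, 6 are soluble and 3 are membrane glutathione S-transferases, 7 are glutathione peroxidases and 5 are peroxiredoxins. Another 5 are thioredoxin 2, the thioredoxin reductases and TXNIP, 11 are other proteins with a thioredoxin-like domain, and 1 is a glutaredoxin. TXN, SRXN1, PRDX5 and some glutaredoxin genes were not analysed here.

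Polyadenylated RNA was sequenced in 25 libraries, 5 groups of 5. TrogGW cells were given troglitazone (7.5 uM), an agonist of the nuclear receptor PPAR-gamma, together with GW9662 (10 uM), which blocks that receptor. UK cells were given UK-5099 (30 uM), which blocks the import of pyruvate into mitochondria. Trog cells were given troglitazone alone (7.5 uM). All 3 drug groups had first had 1 ng/ml of transforming growth factor beta 1 (TGFb1), which makes myofibroblasts of these cells. It was taken away at day 2, and the drugs were then given for 3 days, to day 5. TGFb cells were collected at day 2, with TGFb1 present, and FB cells at day 0, untreated. No sample analysed here lost TGFb1 without receiving a drug, so in comparisons with TGFb the effect of a drug cannot be told apart from that of the missing TGFb1 and of the later day. GW9662 was given only together with troglitazone, so an effect of its own cannot be told apart from one on the action of troglitazone. Replicates are named biological in the labels, with no word on separate donors, so a p-value here measures the spread between libraries, which may be technical.

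Glutathione is a small peptide of glutamate, cysteine and glycine that holds most of the cell's small-molecule thiol. GCLC and GCLM form the ligase that joins glutamate to cysteine, the slow step of its synthesis, GSS adds glycine, and GSR returns oxidised glutathione to the reduced form with NADPH. Glutathione S-transferases join it to reactive electrophiles, glutathione peroxidases spend it on peroxides, and peroxiredoxins remove peroxides with electrons from thioredoxin, which the NADPH-driven thioredoxin reductases renew. TXNIP binds thioredoxin and holds it back, and is also known as a gene induced by glucose. Many of these genes are targets of the transcription factor NRF2 (gene NFE2L2), which KEAP1 keeps in check. The cornea, exposed to light and air, is known to be rich in antioxidant enzymes. Gene roles given here are known mainly from human and mouse.

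The libraries held 14.8 to 25.2 M counts. UK replicate 5, the shallowest, stood apart: across genes its log2 CPM correlated with those of the other UK libraries at 0.836 to 0.855, against at least 0.991 for any other pair within a group. It was the highest UK library for 29 of the 38 tested genes of the set (76.3%) and the lowest for 7 (18.4%). Over all tested genes it was the highest for 43.2% and the lowest for 46.5%. For UK, fold changes of single genes and counts of calls from the main fit are therefore given with and without it. Fibroblast markers were present in every group, 9 of the 10 listed, with a summed level of 6884 to 17966 CPM in TrogGW, 101160.0 to 190986 CPM in UK, 25138 to 30537 CPM in Trog, 166067 to 203733 CPM in TGFb and 91655 to 107503 CPM in FB. The single markers did not move together. COL1A1 lay at 582 to 1332 CPM in TrogGW and 777 to 1521 CPM in Trog, against 55089 to 69518 CPM in TGFb. DCN lay at 171 to 263 CPM in TrogGW and 522 to 650 CPM in Trog, against 541 to 633 CPM in TGFb. PDGFRB was higher, at 139 to 206 CPM in TrogGW and 337 to 422 CPM in Trog, against 100 to 117 CPM in TGFb. Immune cell markers, 8 of the 10 listed, summed to 35.2 to 40.02 CPM in TrogGW, 29.3 to 56.9 CPM in UK, 37.8 to 46.9 CPM in Trog, 21.4 to 30.0 CPM in TGFb and 13.8 to 17.2 CPM in FB, with PTPRC and AIF1 at 0 counts in every group. The 7 markers of vascular endothelium summed to 39.3 to 55.1 CPM in TrogGW, 4.12 to 15.3 CPM in UK, 19.2 to 24.4 CPM in Trog, 7.09 to 9.65 CPM in TGFb and 9.34 to 11.3 CPM in FB, with CLDN5 at 0 in UK, TGFb and FB and EMCN at 0 in TrogGW. KRT3 and KRT12 of corneal epithelium had 0 counts in every group, and the summed level of 6 corneal epithelial markers was at most 10.7 CPM in any library. Markers of melanocytes and Schwann cells, 7 of the 9 listed with TYR and DCT at 0, summed to at most 23.1 CPM. The 8 markers of corneal endothelium, ZP4 at 0 among them, summed to 272 to 277 CPM in TrogGW, 691 to 1232 CPM in UK, 396 to 461 CPM in Trog, 1547 to 1809 CPM in TGFb and 919 to 1011 CPM in FB. Markers of myofibroblasts, 6 of the 7 listed, summed to 24080 to 26300 CPM in TGFb and 6206 to 6668 CPM in FB. In the drug groups they summed to 302 to 464 CPM in TrogGW, 8109 to 13206 CPM in UK and 774 to 1163 CPM in Trog. Keratocyte markers, 5 of the 8 listed, summed to 41.5 to 116 CPM in TrogGW, 202 to 343 CPM in Trog and 2813 to 6611 CPM in UK. They summed to 802 to 972 CPM in TGFb and 185 to 210 CPM in FB. LUM alone held 2798 to 6573 CPM in UK. The part of these shifts in the results was not tested. In bulk RNA, fewer cells of a type and less RNA per cell cannot be told apart.

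Levels are CPM (counts per M of the scaled library total), and the values of single libraries are given in the order of replicates 1 to 5. Changes are log2 fold changes ± SE. Rises, falls and changes are those with an adjusted p under 0.05 (edgeR's quasi-likelihood F test, Benjamini-Hochberg (BH) adjusted over all 10699 tested genes). Between 32.1% and 85.7% of all tested genes were called in the 6 comparisons with all libraries, and the members' counts are read against that share. In TrogGW over TGFb, 13 members rose and 19 fell, 32 of 38, against 85.7% of all tested genes called, 46.1% higher and 39.6% lower. Over the members, the median log2 fold change with all libraries was -0.19, and it was 0.081 over all tested genes. With library totals as the only scaling, 28 members rose and 9 fell. In Trog over TGFb, 13 rose and 16 fell, 29 of 38, against 81.7% of all genes, 42.5% higher and 39.3% lower. Over the members, the median log2 fold change with all libraries was -0.060, and it was 0.045 over all tested genes. With library totals as the only scaling, 28 members rose and 6 fell. In UK over TGFb, 12 rose and 4 fell, 16 of 38, against 32.1% of all genes, 16.9% higher and 15.2% lower. With library totals as the only scaling, 16 members rose and 1 fell. Without UK replicate 5 these counts were 15 and 17, 32 of 38, against 71.2% of all genes, 36.3% higher and 34.9% lower. All 16 members called with it were called in the same direction without it. Of the other members, 7 changed sign without it. Among these, GPX4, GSTZ1, TXN2, TXNL4A and TXNRD2 passed the threshold as falls only without it. Over the members, the median log2 fold change without that library was -0.043, and it was 0.022 over all tested genes.

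GW9662 added to troglitazone went with more falls than rises, except with library totals as the only scaling, where 13 members rose and 13 fell. In TrogGW over Trog, 9 members rose and 21 fell, 30 of 38, while 69.5% of all genes were called, 34.3% higher and 35.2% lower. For the 38 members the median log2 fold change was -0.21, and that of all tested genes was -0.0024. Library totals moved the median of all genes up by 0.18. In UK over Trog, 14 rose and 4 fell, 18 of 38, against 42.6% of all genes, 22.5% higher and 20.1% lower. With library totals as the only scaling, 8 members rose and 11 fell. Without UK replicate 5, 19 rose and 12 fell, 31 of 38, against 74% of all genes, 37% higher and 37% lower, and the 18 members called with it kept their direction. Of the other members, 4 changed sign without it. These were PRDX1, TXN2, TXNL1 and TXNL4A, which passed the threshold as falls only without it. Over the members, the median log2 fold change without that library was 0.17, and it was -0.0090 over all tested genes. In TGFb over FB, 12 rose and 17 fell, 29 of 38, against 68.2% of all genes, 32.8% higher and 35.4% lower. Over the members, the median log2 fold change with all libraries was -0.037, and it was -0.021 over all tested genes. With library totals as the only scaling, 7 members rose and 26 fell. A single fit of all 25 libraries called 16 members in that comparison, 6 higher and 10 lower, against 38.4% of all genes, 18% higher and 20.3% lower.

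Library totals, used as the only scaling, turned the direction of a number of called members, which were 9 in TrogGW over TGFb (GPX1, GSTO1, PRDX2, TXN2, TXNDC12, TXNDC16, TXNL1, TXNL4A and TXNRD2), 9 in Trog over TGFb (GPX1, GPX4, GSTZ1, MGST1, PRDX2, TXNDC12, TXNDC5, TXNL1 and TXNRD2), 2 in TrogGW over Trog (GSR and TXNL1), 1 in UK over Trog (TXNDC12) and 4 in TGFb over FB (GPX8, GSS, TXNDC15 and TXNRD1). Calls lost under it with no change of direction were 1 in TrogGW over TGFb (TXNDC15), 1 in Trog over TGFb (TXNDC15), 3 in UK over TGFb (GCLM, TXNDC11 and TXNDC12), 6 in TrogGW over Trog (GPX1, GPX3, GSTO1, PRDX2, TXNDC16 and TXNL4A), 5 in UK over Trog (GSS, GSTK1, PRDX6, TXNDC16 and TXNRD2) and 1 in TGFb over FB (MGST2). A single fit of all 25 libraries, in which UK replicate 5 enters the spread of every comparison, lost the calls of 3 in TrogGW over TGFb (TXNDC16, TXNL1 and TXNL4A), 7 in Trog over TGFb (GPX1, GPX4, GSTP1, PRDX2, PRDX3, TXNL1 and TXNRD1), 10 in TrogGW over Trog (GPX1, GSR, GSTK1, PRDX1, PRDX2, TXNDC16, TXNDC17, TXNDC2, TXNL1 and TXNL4A) and 13 in TGFb over FB (GLRX5, GPX4, GPX8, GSS, GSTM3, MGST1, MGST2, PRDX1, TXN2, TXNDC15, TXNL1, TXNL4A and TXNRD1).

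Comparisons with TGFb share the TGFb libraries, and those with Trog share the Trog libraries, so their values stand side by side and are not independent. The heat map gives every tested member in every comparison.

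**Figure D1:**
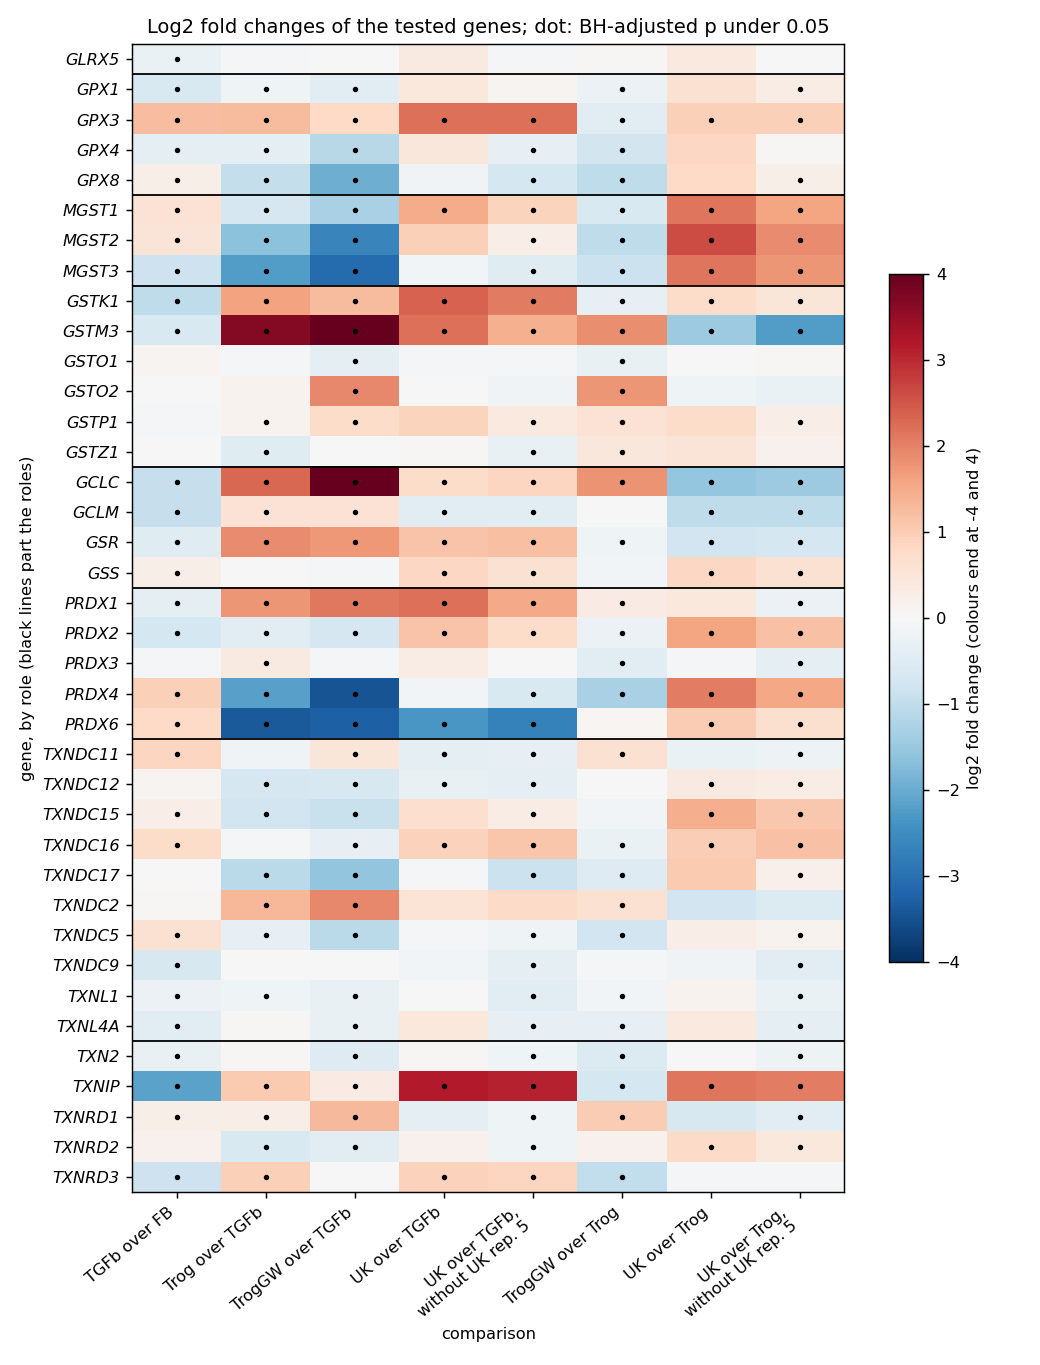
Log2 fold changes of the 38 tested members (rows, by role) in the 6 comparisons, with the UK comparisons also shown without UK replicate 5 (columns). Colour gives the log2 fold change, red for higher and blue for lower in the group named first, with colours ending at -4 and 4, and a dot marks an adjusted p under 0.05; GSTM3 and GCLC in TrogGW over TGFb are the highest values, at 5.53 and 4.09, and PRDX4 in TrogGW over TGFb is the lowest, at -3.46.

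Of the 4 genes of glutathione synthesis and reduction, 3 rose over TGFb in both TrogGW and Trog, and the catalytic ligase subunit GCLC rose furthest in TrogGW. Of all tested genes, 85.7% were called in TrogGW over TGFb, 46.1% higher, and 81.7% in Trog over TGFb, 42.5% higher. GCLC measured 270.0, 327, 367, 302 and 323 CPM in TrogGW, and 34.8, 35.9, 31.4, 32.2 and 21.8 CPM in UK. Trog libraries held GCLC at 97.1, 91.5, 90.9, 86.0 and 94.0 CPM, and TGFb libraries at 17.9, 19.0, 19.9, 17.7 and 18.8 CPM. FB libraries held GCLC at 34.6, 37.0, 33.0, 35.1 and 35.9 CPM. The TrogGW libraries were the highest, Trog came next, and neither overlapped any other group. GCLC rose by 4.09 ± 0.079 in TrogGW over TGFb (17.0-fold, edgeR BH-adjusted p = 3.17e-17). It rose by 2.30 ± 0.056 in Trog over TGFb (4.92-fold, edgeR BH-adjusted p = 5.17e-20). GW9662 on top of troglitazone added 1.79 ± 0.073 (3.46-fold, edgeR BH-adjusted p = 2.95e-11). All 5 TGFb libraries lay below all FB libraries, and GCLC fell in TGFb over FB, at -0.91 ± 0.061. In UK, GCLC was above TGFb and below Trog in every library. The change was 0.74 ± 0.14 with all UK libraries and 0.85 ± 0.067 without UK replicate 5 over TGFb, and -1.56 ± 0.14 with all UK libraries and -1.45 ± 0.062 without UK replicate 5 over Trog.

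The modifier subunit GCLM lowers the amount of substrate the ligase needs and eases its inhibition by glutathione. It parted from GCLC in TrogGW over Trog and in UK over TGFb. In the other comparisons it moved in the same direction, with smaller rises over TGFb in TrogGW and Trog. GCLM measured 89.3, 85.3, 78.8, 75.0 and 77.3 CPM in TrogGW, and 40.3, 44.0, 39.0, 36.1 and 41.4 CPM in UK. Trog libraries held GCLM at 78.5, 86.4, 73.1, 79.9 and 84.6 CPM, and TGFb libraries at 51.7, 54.8, 58.7, 52.3 and 52.1 CPM. FB libraries held GCLM at 102, 105, 99.6, 104 and 94.7 CPM. FB libraries were the highest and UK libraries the lowest, and TrogGW and Trog libraries overlapped. GCLM fell in TGFb over FB (-0.91 ± 0.050) and rose over TGFb in TrogGW (0.59 ± 0.057) and in Trog (0.58 ± 0.055). GW9662 made no difference past the threshold, at 0.011 ± 0.060 (edgeR BH-adjusted p = 0.876). GCLM also fell in UK. The change was -0.43 ± 0.099 with all UK libraries and -0.44 ± 0.064 without UK replicate 5 over TGFb, a call lost with library totals alone (-0.20, edgeR BH-adjusted p = 0.191), and -1.004 ± 0.10 with all UK libraries and -1.02 ± 0.069 without UK replicate 5 over Trog. In TrogGW, every GCLC value was above the FB range and every GCLM value below it.

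Glutathione reductase, GSR, was above its TGFb and FB levels in every library of the 3 drug groups. GSR measured 143, 142, 133, 138 and 133 CPM in TrogGW, and 105, 103, 93.2, 85.6 and 71.4 CPM in UK. Trog libraries held GSR at 165, 159, 154, 140.2 and 162 CPM, and TGFb libraries at 38.0, 45.4, 38.7, 45.4 and 41.3 CPM. FB libraries held GSR at 64.2, 52.0, 58.3, 61.1 and 55.7 CPM. TrogGW and Trog libraries overlapped at the top, UK libraries lay below them, and TGFb libraries were the lowest. GSR rose over TGFb in TrogGW (1.72 ± 0.057), in Trog (1.90 ± 0.061) and in UK (1.13 ± 0.13 with all UK libraries and 1.21 ± 0.070 without UK replicate 5). The change in TrogGW over Trog was small, -0.18 ± 0.052, and its sign turned with library totals as the only scaling. GSR also fell in TGFb over FB (-0.48 ± 0.064) and in UK over Trog (-0.77 ± 0.12 with all UK libraries and -0.69 ± 0.068 without UK replicate 5).

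GSS, the synthetase that adds glycine, was raised in UK. GSS measured 48.3, 42.6, 46.4, 45.5 and 42.4 CPM in TrogGW, and 77.5, 77.1, 72.6, 68.2 and 132 CPM in UK. Trog libraries held GSS at 44.6, 54.8, 50.9, 46.7 and 45.9 CPM, and TGFb libraries at 45.2, 46.2, 48.8, 52.8 and 47.2 CPM. FB libraries held GSS at 40.5, 43.0, 41.6, 41.0 and 38.6 CPM. All 5 UK libraries lay above every other library, UK replicate 5 furthest, while TrogGW, Trog and TGFb libraries overlapped. GSS rose by 0.83 ± 0.18 with all UK libraries and 0.62 ± 0.059 without UK replicate 5 in UK over TGFb, and by 0.81 ± 0.19 with all UK libraries and 0.60 ± 0.068 without UK replicate 5 in UK over Trog, where library totals alone gave 0.33 with all UK libraries and ended the call (edgeR BH-adjusted p = 0.0888). It did not pass the threshold in TrogGW over TGFb (-0.091 ± 0.056, edgeR BH-adjusted p = 0.135) or in Trog over TGFb (0.017 ± 0.062, edgeR BH-adjusted p = 0.801). Library totals alone gave rises of 0.77 and 0.70 there (edgeR BH-adjusted p = 6.50e-10 and 8.25e-10), and DESeq2 called a fall in TrogGW over TGFb (BH-adjusted p = 0.0441). In TGFb over FB the change was 0.23 ± 0.055, and it turned to -0.14 with library totals as the only scaling.

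**Figure D2:**
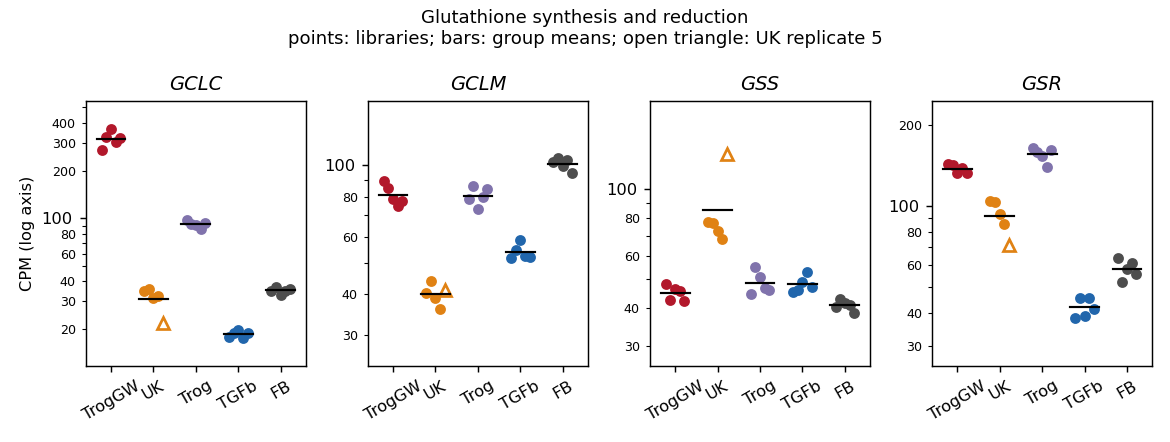
Levels of GCLC, GCLM, GSS and GSR in each library (points, CPM on a log axis) in TrogGW, UK, Trog, TGFb and FB, with group means as bars and UK replicate 5 as an open triangle. GCLC averaged 318 ± 35.7 CPM in TrogGW, 31.2 ± 5.6 CPM in UK, 91.9 ± 4.1 CPM in Trog, 18.7 ± 0.89 CPM in TGFb and 35.1 ± 1.5 CPM in FB (SD, n = 5 each), while the GCLM libraries of TrogGW and Trog overlap.

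Among the soluble glutathione S-transferases, GSTM3 and GSTK1 rose over TGFb in all 3 drug groups. Of the 6 tested, 4 rose and 1 fell in TrogGW over TGFb, 3 rose and 1 fell in Trog over TGFb, and 2 rose in UK over TGFb. Without UK replicate 5, 3 rose and 1 fell in UK over TGFb. Of all tested genes, 85.7% were called in TrogGW over TGFb and 81.7% in Trog over TGFb. In UK over TGFb that share was 32.1% with and 71.2% without UK replicate 5. All 6 rose with library totals alone in TrogGW over TGFb and in Trog over TGFb, and 3 rose in UK over TGFb. GSTM3, a mu class transferase, was among the members with the largest changes. GSTM3 measured 2185, 1498, 1214, 1192 and 1826 CPM in TrogGW, and 81.9, 116, 81.7, 86.2 and 423 CPM in UK. Trog libraries held GSTM3 at 393, 480.0, 419, 369 and 504 CPM, and TGFb libraries at 33.1, 32.8, 31.8, 42.2 and 31.4 CPM. FB libraries held GSTM3 at 53.0, 56.6, 56.3, 50.7 and 46.5 CPM. Every TrogGW library was above every Trog library, and all Trog libraries were above those of TGFb and FB. GSTM3 rose by 5.53 ± 0.17 in TrogGW over TGFb (46.3-fold, edgeR BH-adjusted p = 7.68e-15), by 3.66 ± 0.091 in Trog over TGFb and by 1.87 ± 0.15 in TrogGW over Trog. In UK, 4 libraries lay between 81.7 and 116 CPM and UK replicate 5, at 423 CPM, lay within the Trog range. The rise in UK over TGFb was 2.20 ± 0.48 with all UK libraries and 1.42 ± 0.099 without UK replicate 5, and the fall in UK over Trog was -1.46 ± 0.47 with all UK libraries and -2.24 ± 0.11 without UK replicate 5. The call in UK over Trog was lost without any 1 of Trog replicates 2, 3 and 5 or UK replicates 1 to 4 (edgeR BH-adjusted p = 0.0509 to 0.0647). Mu class genes are close copies of each other, and how the authors' counting shared reads between them was not given in the sources used here, so the level of GSTM3 is uncertain in that respect.

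GSTK1, the kappa class transferase of mitochondria and peroxisomes, rose in all 3 drug groups. GSTK1 measured 77.4, 80.0, 85.7, 82.3 and 76.3 CPM in TrogGW, and 155, 144, 138, 126 and 287 CPM in UK. Trog libraries held GSTK1 at 99.0, 104, 107, 91.3 and 105 CPM, and TGFb libraries at 33.9, 31.3, 34.7, 33.8 and 31.7 CPM. FB libraries held GSTK1 at 70.0, 67.6, 70.3, 64.8 and 63.1 CPM. UK libraries were the highest, Trog and TrogGW libraries followed in that order without overlap, and TGFb libraries were the lowest. GSTK1 rose over TGFb by 1.28 ± 0.051 in TrogGW, by 1.61 ± 0.055 in Trog and by 2.36 ± 0.23 with all UK libraries and 2.09 ± 0.062 without UK replicate 5 in UK. It fell in TGFb over FB (-1.02 ± 0.053) and in TrogGW over Trog (-0.33 ± 0.053), and rose in UK over Trog (0.75 ± 0.22 with all UK libraries and 0.48 ± 0.065 without UK replicate 5), a call lost with library totals alone (0.26, edgeR BH-adjusted p = 0.237).

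GSTO2, an omega class enzyme that reduces dehydroascorbate, was raised in TrogGW. GSTO2 measured 3.28, 3.98, 3.98, 3.64 and 3.49 CPM in TrogGW, and 0.990, 0.987, 0.774, 0.816 and 1.34 CPM in UK. Trog libraries held GSTO2 at 0.645, 1.31, 0.856, 1.19 and 1.39 CPM, and TGFb libraries at 1.21, 0.612, 0.961, 0.746 and 1.30 CPM. FB libraries held GSTO2 at 1.14, 1.11, 1.10, 0.815 and 0.714 CPM. The 5 TrogGW libraries lay above all others, and the other groups overlapped. GSTO2 rose by 1.91 ± 0.18 in TrogGW over TGFb and by 1.76 ± 0.18 in TrogGW over Trog. GSTP1, the pi class enzyme, averaged 192 ± 23.0 CPM in TrogGW and 128 ± 12.5 CPM in Trog (SD, n = 5 each), a rise of 0.58 ± 0.083. GSTZ1, which also works in tyrosine breakdown, rose in TrogGW over Trog (0.46 ± 0.080). In Trog over TGFb it fell by 0.47 ± 0.072, a direction that turned with library totals as the only scaling. GSTO1 stayed within -0.37 and 0.097 in all 6 comparisons and fell in TrogGW over TGFb and TrogGW over Trog, with the TrogGW over TGFb direction turning with library totals alone.

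The membrane-bound transferases MGST1, MGST2 and MGST3 sit in the endoplasmic reticulum and outer mitochondrial membranes. All 3 fell in TrogGW over TGFb, in Trog over TGFb and in TrogGW over Trog, and all 3 rose in UK over Trog, although MGST1 turned to 0.018 in Trog over TGFb with library totals as the only scaling. Of all tested genes, 39.6% were lower in TrogGW over TGFb, 39.3% in Trog over TGFb and 35.2% in TrogGW over Trog. In UK over Trog, 22.5% were higher with all UK libraries and 37% without UK replicate 5. MGST3 measured 7.35, 6.82, 5.99, 4.67 and 8.36 CPM in TrogGW, and 47.0, 39.7, 38.2, 36.2 and 101 CPM in UK. Trog libraries held MGST3 at 10.9, 11.7, 14.1, 10.9 and 12.2 CPM, and TGFb libraries at 55.6, 54.9, 55.7, 60.3 and 54.5 CPM. FB libraries held MGST3 at 101, 105, 98.6, 94.9 and 97.6 CPM. The order from the highest group was FB, TGFb, UK without replicate 5, Trog and TrogGW, with no overlap between neighbours, and UK replicate 5 reached the FB range. MGST3 changed by -3.09 ± 0.10 in TrogGW over TGFb, -2.23 ± 0.069 in Trog over TGFb and -0.82 ± 0.048 in TGFb over FB. In UK it was 2.13 ± 0.29 over Trog with all libraries and 1.75 ± 0.092 without UK replicate 5. Over TGFb, UK gave -0.10 ± 0.27 with all libraries, not past the threshold, and -0.48 ± 0.069 without UK replicate 5. The 3 parted in TGFb over FB, where MGST1 (0.59 ± 0.048) and MGST2 (0.51 ± 0.086) rose and MGST3 fell. With library totals alone MGST2 was 0.13 there, not past the threshold (edgeR BH-adjusted p = 0.169).

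MGST2, which can also make leukotriene C4, gave the same order of TrogGW and Trog. MGST2 measured 3.39, 2.40, 2.25, 2.04 and 3.02 CPM in TrogGW, and 19.9, 17.2, 22.0, 20.1 and 81.8 CPM in UK. Trog libraries held MGST2 at 5.12, 5.59, 5.83, 5.59 and 4.35 CPM, and TGFb libraries at 19.4, 16.4, 15.1, 15.9 and 15.3 CPM. FB libraries held MGST2 at 9.69, 12.6, 11.9, 11.5 and 12.0 CPM. TrogGW libraries were the lowest, Trog libraries lay just above them without overlap, and UK and TGFb libraries overlapped at the top once UK replicate 5 was set aside. MGST2 changed by -2.65 ± 0.13 in TrogGW over TGFb, -1.63 ± 0.096 in Trog over TGFb and -1.02 ± 0.15 in TrogGW over Trog. In UK over Trog the rise was 2.60 ± 0.45 with all UK libraries and 1.90 ± 0.10 without UK replicate 5.

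MGST1, which acts on lipid peroxides, was highest in UK. MGST1 measured 67.9, 71.1, 60.8, 54.9 and 66.7 CPM in TrogGW, and 293, 282, 301, 296 and 1015 CPM in UK. Trog libraries held MGST1 at 95.4, 104, 109.9, 92.9 and 92.6 CPM, and TGFb libraries at 174, 155, 153, 150.4 and 153 CPM. FB libraries held MGST1 at 104, 107, 109, 101 and 102 CPM. Every UK library was above every other library, TGFb libraries came next, and TrogGW libraries were the lowest. MGST1 rose by 1.48 ± 0.37 with all UK libraries and 0.90 ± 0.054 without UK replicate 5 in UK over TGFb, and by 2.14 ± 0.38 with all UK libraries and 1.56 ± 0.061 without UK replicate 5 in UK over Trog. It fell in TrogGW over TGFb (-1.29 ± 0.066) and in TrogGW over Trog (-0.62 ± 0.071).

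**Figure D3:**
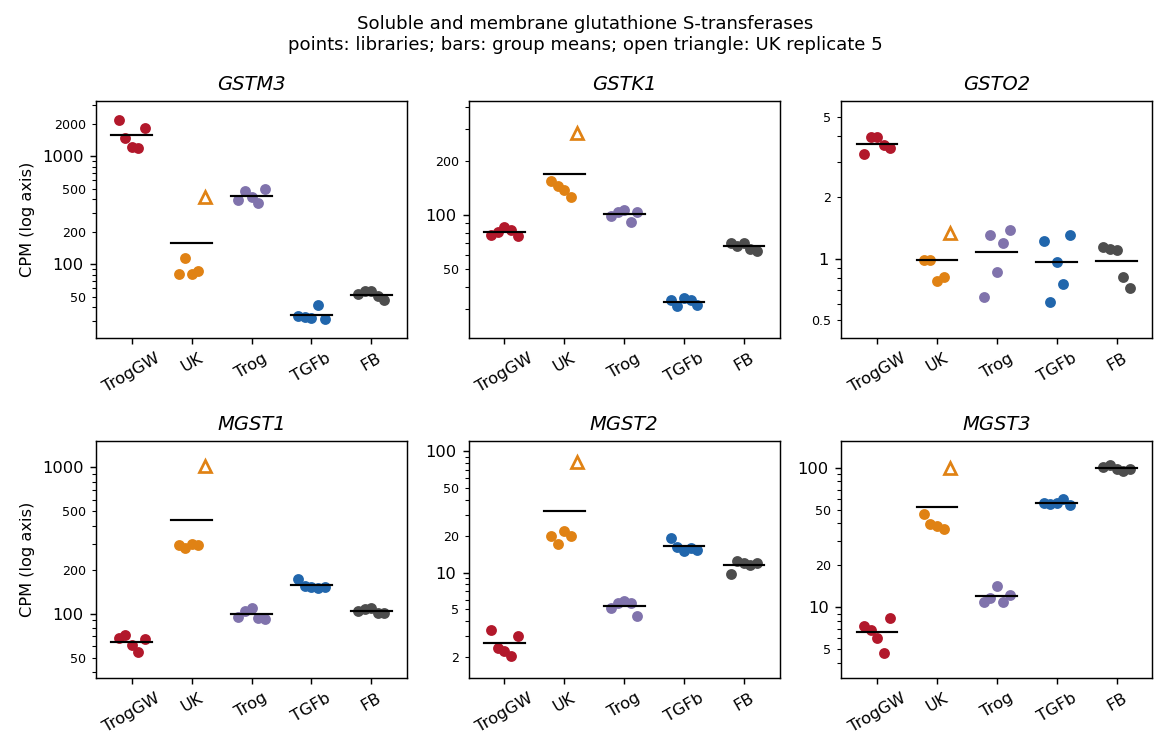
Levels of glutathione S-transferases in each library (points, CPM on a log axis) in TrogGW, UK, Trog, TGFb and FB, with group means as bars and UK replicate 5 as an open triangle. GSTM3 is highest in TrogGW, at 1192 to 2185 CPM, while MGST3 is lowest in TrogGW, at 4.67 to 8.36 CPM.

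Of the 7 glutathione peroxidases, 4 were tested. GPX4, GPX8 and GPX1 fell in TrogGW over TGFb and in Trog over TGFb while GPX3 rose in both; with library totals as the only scaling GPX1 turned in both comparisons and GPX4 in Trog over TGFb. GPX8, a peroxidase of the endoplasmic reticulum membrane, was lowest where both compounds were given. GPX8 measured 17.7, 17.3, 14.6, 19.0 and 17.9 CPM in TrogGW, and 47.2, 39.6, 40.9, 35.9 and 140.3 CPM in UK. Trog libraries held GPX8 at 35.8, 32.6, 34.6, 31.0 and 39.6 CPM, and TGFb libraries at 64.5, 63.5, 72.1, 68.3 and 64.7 CPM. FB libraries held GPX8 at 54.0, 66.0, 55.4, 55.3 and 50.3 CPM. TrogGW libraries lay below all others, Trog and UK libraries overlapped above them, and UK replicate 5 was the highest of all. GPX8 changed by -1.94 ± 0.067 in TrogGW over TGFb, -0.94 ± 0.063 in Trog over TGFb and -1.002 ± 0.080 in TrogGW over Trog. In UK over TGFb it was -0.13 ± 0.36 with all UK libraries, which did not pass the threshold, and -0.71 ± 0.070 without UK replicate 5, which did.

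GPX4 reduces peroxidised phospholipids within membranes and is the enzyme that guards cells from ferroptosis. It averaged 77.7 ± 8.5 CPM in TrogGW, 130.1 ± 10.4 CPM in Trog, 169 ± 11.7 CPM in TGFb and 218 ± 8.8 CPM in FB (SD, n = 5 each). In UK it lay between 124 and 150.4 CPM in 4 libraries and at 608 CPM in UK replicate 5. In UK over TGFb, GPX4 was 0.44 ± 0.44 with all UK libraries, not past the threshold. Without UK replicate 5 it was -0.33 ± 0.066 there, which passed it. In UK over Trog neither value passed, 0.82 ± 0.45 with all UK libraries and 0.047 ± 0.071 without UK replicate 5. GPX4 fell in TrogGW over TGFb (-1.12 ± 0.070) and in TrogGW over Trog (-0.74 ± 0.075). GPX1, the cytosolic peroxidase, fell in TrogGW over TGFb (-0.42 ± 0.066) and in TGFb over FB (-0.62 ± 0.056).

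GPX3, the secreted peroxidase of plasma, was present at a few CPM. GPX3 measured 1.56, 1.81, 2.09, 2.04 and 2.23 CPM in TrogGW, and 5.83, 5.13, 4.54, 5.53 and 4.93 CPM in UK. Trog libraries held GPX3 at 3.01, 2.55, 2.61, 3.28 and 1.94 CPM, and TGFb libraries at 1.15, 0.917, 1.02, 1.34 and 1.24 CPM. FB libraries held GPX3 at 0.538, 0.606, 0.734, 0.215 and 0.330 CPM. UK libraries were the highest, UK replicate 5 among them at no extreme, TrogGW and Trog libraries overlapped, and FB libraries were the lowest. GPX3 rose in UK over TGFb (2.19 ± 0.15 with all UK libraries and 2.22 ± 0.16 without UK replicate 5), in Trog over TGFb (1.25 ± 0.19) and in TGFb over FB (1.23 ± 0.29). GPX2, GPX5 and GPX6 were not tested. GPX2 had 17 counts summed over TrogGW, 3 over UK, 3 over Trog, 1 over TGFb and 4 over FB. GPX5 had 5 over TrogGW, 26 over Trog and 0 over UK, TGFb and FB, and GPX6 had 0 in every group. A count of 0 over a group allows up to 3 counts, or 0.0228 to 0.0375 CPM by group, for counting error only.

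The peroxiredoxins went separate ways: PRDX1 rose in all 3 drug groups over TGFb, and PRDX6 fell in all of them. PRDX1 is the main cytosolic enzyme. PRDX1 measured 3472, 3169, 3044, 3017 and 3360.1 CPM in TrogGW, and 2071, 2606, 2024, 1895 and 8423 CPM in UK. Trog libraries held PRDX1 at 2274, 2693, 2794, 2131 and 2875 CPM, and TGFb libraries at 704, 749, 755, 783 and 732 CPM. FB libraries held PRDX1 at 1092, 956, 991, 892 and 846 CPM. All drug-treated libraries lay above all TGFb and FB libraries, TrogGW above Trog without overlap, and UK replicate 5 was the highest of the 25. PRDX1 rose by 2.11 ± 0.078 in TrogGW over TGFb (4.31-fold), by 1.78 ± 0.077 in Trog over TGFb and by 2.19 ± 0.42 with all UK libraries and 1.53 ± 0.079 without UK replicate 5 in UK over TGFb. In UK over Trog it was 0.41 ± 0.41 with all UK libraries and -0.25 ± 0.11 without UK replicate 5, and it was -0.11 with all UK libraries and library totals alone. PRDX1 has processed copies in mammalian genomes, and reads they might share with it were not separated here.

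PRDX6, which also has phospholipase A2 activity and takes its electrons from glutathione, was lowest in TrogGW and Trog. PRDX6 measured 181, 172, 169, 153 and 174 CPM in TrogGW, and 300.5, 226, 249, 232 and 615 CPM in UK. Trog libraries held PRDX6 at 157, 159, 173, 149 and 167 CPM, and TGFb libraries at 1521, 1632, 1731, 1671 and 1624 CPM. FB libraries held PRDX6 at 923, 961, 989.5, 913 and 954 CPM. TrogGW and Trog libraries overlapped at the bottom, UK libraries lay above them, and FB and then TGFb libraries were higher without overlap. PRDX6 fell in all 3 drug groups over TGFb. The change was -3.27 ± 0.072 in TrogGW, -3.35 ± 0.062 in Trog (edgeR BH-adjusted p = 7.84e-22), and in UK -2.33 ± 0.28 with all UK libraries and -2.70 ± 0.082 without UK replicate 5. It rose in TGFb over FB (0.79 ± 0.047). GW9662 made no difference past the threshold (0.076 ± 0.057, edgeR BH-adjusted p = 0.242).

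PRDX4, the peroxiredoxin of the endoplasmic reticulum, was lower in Trog than in TGFb and lower still in TrogGW. PRDX4 measured 45.4, 35.6, 27.6, 26.0 and 40.1 CPM in TrogGW, and 281, 254, 246, 230.4 and 776 CPM in UK. Trog libraries held PRDX4 at 82.1, 89.5, 92.1, 82.0 and 83.7 CPM, and TGFb libraries at 429.6, 352, 397, 399 and 348 CPM. FB libraries held PRDX4 at 206, 199, 205, 188 and 198 CPM. TrogGW libraries were the lowest and Trog libraries the next, with no overlap. The 4 other UK libraries lay between Trog and TGFb, and UK replicate 5 above every TGFb library. PRDX4 changed by -3.46 ± 0.13 in TrogGW over TGFb, -2.16 ± 0.062 in Trog over TGFb, -1.30 ± 0.12 in TrogGW over Trog and 0.95 ± 0.054 in TGFb over FB. In UK over TGFb it was -0.11 ± 0.33 with all UK libraries, not past the threshold, and -0.61 ± 0.070 without UK replicate 5.

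PRDX2, the other cytosolic enzyme, averaged 42.3 ± 5.5 CPM in TrogGW, 149.9 ± 85.1 CPM in UK, 49.7 ± 4.4 CPM in Trog, 67.9 ± 4.0 CPM in TGFb and 111 ± 6.7 CPM in FB (SD, n = 5 each). The UK mean was raised by UK replicate 5, at 302 CPM. UK replicates 1 to 4 held 114, 123, 107 and 104 CPM, against 103 to 119 CPM in FB. PRDX2 rose in UK over TGFb (1.14 ± 0.29 with all UK libraries and 0.72 ± 0.059 without UK replicate 5). It also rose in UK over Trog (1.59 ± 0.30 with all UK libraries and 1.17 ± 0.070 without UK replicate 5) and fell in TGFb over FB (-0.72 ± 0.053). Its falls in TrogGW over TGFb (-0.68 ± 0.077) and Trog over TGFb (-0.45 ± 0.061) turned with library totals as the only scaling. PRDX3, the mitochondrial enzyme, moved by at most 0.42 in size in the 6 comparisons, with a fall in TrogGW over Trog (-0.42 ± 0.058) and a rise in Trog over TGFb (0.35 ± 0.048). In UK over Trog, PRDX3 was -0.046 ± 0.24 with all UK libraries, not past the threshold, and -0.36 ± 0.063 without UK replicate 5, which passed it.

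**Figure D4:**
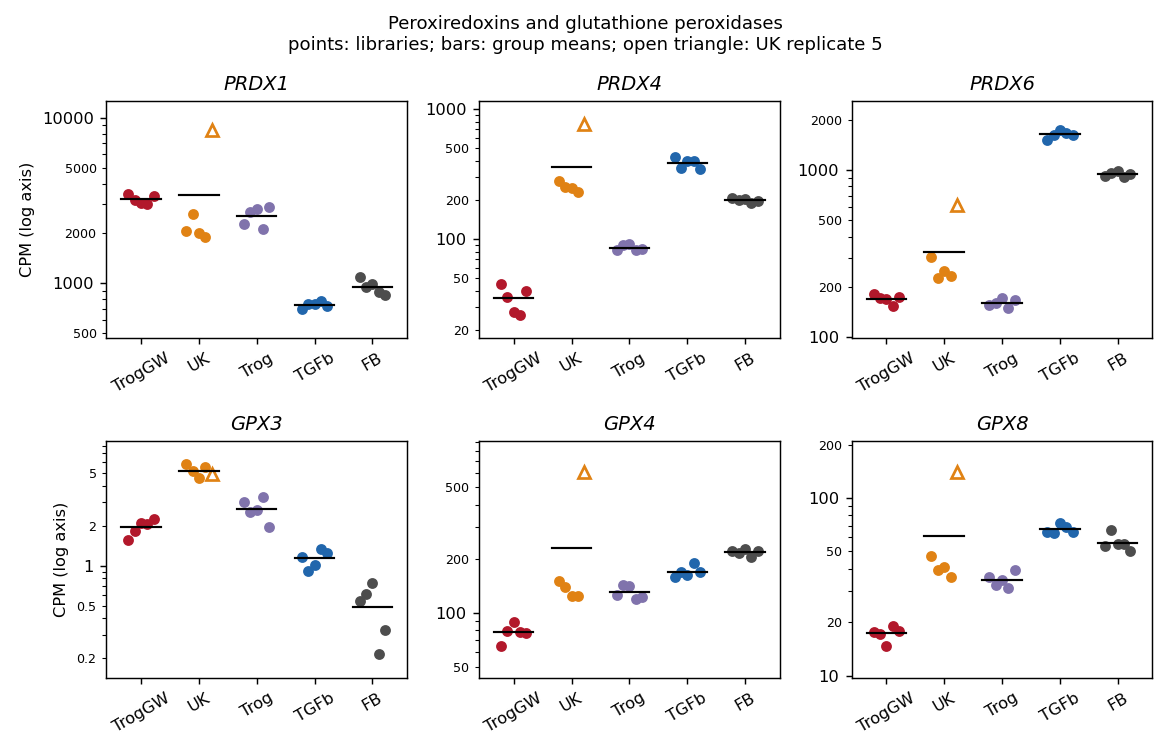
Levels of peroxiredoxins and glutathione peroxidases in each library (points, CPM on a log axis) in TrogGW, UK, Trog, TGFb and FB, with group means as bars and UK replicate 5 as an open triangle. PRDX6 lies at 153 to 181 CPM in TrogGW and 149 to 173 CPM in Trog, against 1521 to 1731 CPM in TGFb, and UK replicate 5 sits above the other UK libraries in every panel but that of GPX3.

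In the thioredoxin system, TXNIP was highest in one drug group and the reductase TXNRD1 in another. TXNIP, the thioredoxin-binding inhibitor, stood highest in UK. TXNIP measured 64.0, 85.5, 87.9, 94.4 and 95.8 CPM in TrogGW, and 615, 529.8, 561, 593 and 746 CPM in UK. Trog libraries held TXNIP at 129, 146, 145, 135 and 143 CPM, and TGFb libraries at 78.9, 66.5, 68.7, 75.9 and 48.8 CPM. FB libraries held TXNIP at 326, 298, 311, 294 and 272 CPM. UK libraries were above all others, FB libraries followed, then Trog libraries, and TrogGW and TGFb libraries overlapped at the bottom. TXNIP rose by 3.17 ± 0.16 in UK over TGFb (8.99-fold, edgeR BH-adjusted p = 7.75e-07) and by 3.09 ± 0.099 without UK replicate 5. It rose in UK over Trog (2.13 ± 0.12 with all UK libraries and 2.04 ± 0.063 without UK replicate 5) and in Trog over TGFb (1.04 ± 0.084). It fell in TGFb over FB (-2.15 ± 0.082) and in TrogGW over Trog (-0.71 ± 0.087), and rose by 0.34 ± 0.11 in TrogGW over TGFb.

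TXNRD1, the cytosolic thioredoxin reductase, rose furthest over TGFb in TrogGW and rose less in Trog. TXNRD1 measured 782, 710.1, 711, 638 and 739 CPM in TrogGW, and 245, 277, 262, 256 and 89.2 CPM in UK. Trog libraries held TXNRD1 at 339.8, 352, 329, 344 and 399.6 CPM, and TGFb libraries at 275, 290.4, 283, 312 and 297 CPM. FB libraries held TXNRD1 at 258, 243, 260.1, 246 and 233 CPM. TrogGW libraries were above all others, Trog libraries next, and UK replicate 5 was the lowest of the 25. TXNRD1 rose by 1.30 ± 0.064 in TrogGW over TGFb (2.46-fold), by 1.02 ± 0.069 in TrogGW over Trog and by 0.28 ± 0.056 in Trog over TGFb. That last call was lost in the fit of all 25 libraries (edgeR BH-adjusted p = 0.177), and library totals alone gave 0.96. In UK over TGFb, TXNRD1 was -0.37 ± 0.26 with all UK libraries, not past the threshold, and -0.17 ± 0.055 without UK replicate 5, which passed it. In UK over Trog it was -0.64 ± 0.26 with all UK libraries, not past the threshold, and fell by 0.44 ± 0.065 without UK replicate 5. Its rise of 0.23 ± 0.047 in TGFb over FB turned to -0.14 with library totals alone.

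TXNRD3, the reductase that also carries a glutaredoxin domain, followed another pattern. TXNRD3 measured 9.68, 6.12, 6.38, 6.51 and 6.97 CPM in TrogGW, and 12.1, 13.8, 14.5, 12.5 and 15.9 CPM in UK. Trog libraries held TXNRD3 at 14.7, 12.9, 12.7, 14.7 and 15.6 CPM, and TGFb libraries at 7.35, 6.97, 6.84, 8.06 and 6.96 CPM. FB libraries held TXNRD3 at 11.4, 14.1, 12.6, 12.8 and 12.5 CPM. UK, Trog and FB libraries overlapped at the higher level, TrogGW and TGFb libraries overlapped at the lower one, and TrogGW replicate 1 was the highest of its group. TXNRD3 rose in Trog over TGFb (0.97 ± 0.088) and in UK over TGFb (0.93 ± 0.12 with all UK libraries and 0.87 ± 0.093 without UK replicate 5), and fell in TGFb over FB (-0.82 ± 0.087) and TrogGW over Trog (-0.99 ± 0.12). TXNRD2, the mitochondrial reductase, averaged 13.7 ± 1.3 CPM in TrogGW, 12.1 ± 1.0 CPM in Trog and 18.4 ± 1.2 CPM in TGFb (SD, n = 5 each), and its falls in both drug groups turned with library totals alone. TXN2, the mitochondrial thioredoxin, fell in TrogGW over Trog (-0.55 ± 0.074).

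**Figure D5:**
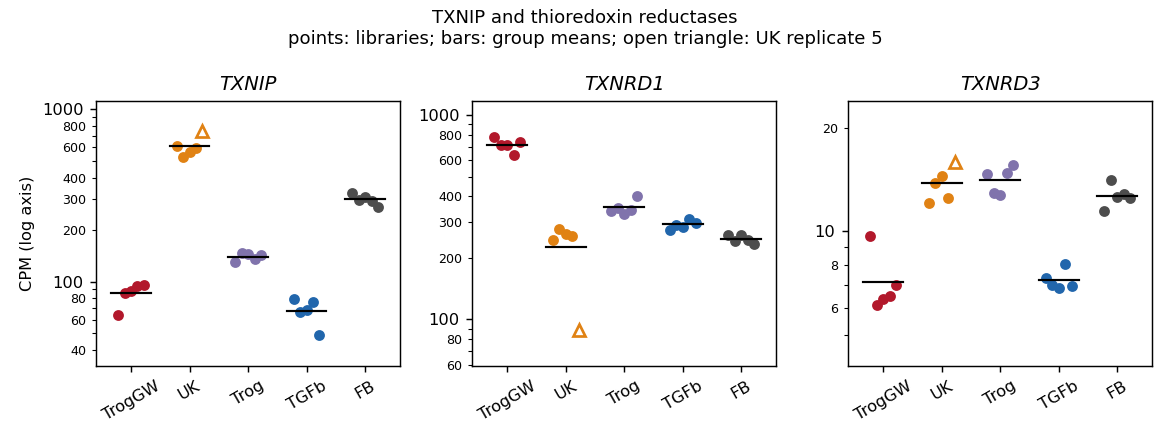
Levels of TXNIP, TXNRD1 and TXNRD3 in each library (points, CPM on a log axis) in TrogGW, UK, Trog, TGFb and FB, with group means as bars and UK replicate 5 as an open triangle. TXNIP lies at 529.8 to 746 CPM in UK, against 129 to 146 CPM in Trog and 48.8 to 78.9 CPM in TGFb, and TXNRD1 lies at 638 to 782 CPM in TrogGW, above every other group.

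Of the 10 tested proteins with a thioredoxin-like domain, 2 rose and 7 fell in TrogGW over TGFb, 1 rose and 5 fell in Trog over TGFb, and 1 rose and 2 fell in UK over TGFb. Without UK replicate 5 the last counts were 2 and 7. Of all tested genes, 85.7% were called in TrogGW over TGFb, 81.7% in Trog over TGFb, and in UK over TGFb 32.1% with and 71.2% without UK replicate 5. Scaled by library totals alone, 7 of the 10 rose and 2 fell in TrogGW over TGFb, 7 rose and 1 fell in Trog over TGFb, and 2 rose in UK over TGFb. TXNDC11, an endoplasmic reticulum protein known for helping dual oxidases mature, was highest in TrogGW. TXNDC11 measured 83.1, 91.8, 83.8, 103 and 92.9 CPM in TrogGW, and 49.0, 47.9, 52.1, 56.1 and 41.8 CPM in UK. Trog libraries held TXNDC11 at 58.3, 64.0, 53.4, 56.1 and 64.1 CPM, and TGFb libraries at 68.6, 61.6, 68.1, 61.0 and 63.6 CPM. FB libraries held TXNDC11 at 35.5, 34.6, 37.3, 34.5 and 35.6 CPM. TrogGW libraries lay above all others, UK libraries below TGFb, and FB libraries were the lowest. TXNDC11 rose in TGFb over FB (0.87 ± 0.053), in TrogGW over TGFb (0.49 ± 0.061) and in TrogGW over Trog (0.62 ± 0.068). In UK over TGFb it fell, at -0.39 ± 0.11 with all UK libraries and -0.33 ± 0.060 without UK replicate 5, and this call was lost without TGFb replicate 1 or 3 (edgeR BH-adjusted p = 0.0536 and 0.0562) and with library totals alone (-0.15, edgeR BH-adjusted p = 0.387).

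TXNDC12, a small oxidoreductase of the endoplasmic reticulum, was lower in both troglitazone groups than in TGFb. TXNDC12 measured 47.5, 50.3, 46.0, 48.0 and 51.9 CPM in TrogGW, and 61.6, 60.2, 60.0, 57.1 and 72.0 CPM in UK. Trog libraries held TXNDC12 at 48.2, 48.2, 50.2, 45.9 and 48.4 CPM, and TGFb libraries at 80.4, 73.1, 78.3, 77.5 and 72.0 CPM. FB libraries held TXNDC12 at 69.7, 77.3, 74.4, 69.8 and 65.3 CPM. TrogGW and Trog libraries overlapped, and all lay below UK and TGFb libraries. TXNDC12 changed by -0.65 ± 0.050 in TrogGW over TGFb and -0.66 ± 0.050 in Trog over TGFb, both turning with library totals alone. In UK over TGFb it fell, at -0.29 ± 0.10 with all UK libraries and -0.35 ± 0.053 without UK replicate 5, a call that was lost without any 1 library other than UK replicate 5 (edgeR BH-adjusted p = 0.0730 to 0.108) and with library totals alone (-0.073, edgeR BH-adjusted p = 0.558).

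TXNDC5, a disulfide isomerase of the secretory pathway, averaged 541 ± 30.9 CPM in TrogGW, 911 ± 27.5 CPM in Trog, 1142 ± 23.6 CPM in TGFb and 747 ± 16.4 CPM in FB (SD, n = 5 each). It rose in TGFb over FB (0.61 ± 0.043) and fell in TrogGW over TGFb (-1.08 ± 0.061) and TrogGW over Trog (-0.75 ± 0.058). TXNDC17, a cytosolic reductase of disulfides, fell in TrogGW over TGFb (-1.59 ± 0.067) and in Trog over TGFb (-1.08 ± 0.066). In UK over TGFb, TXNDC17 was -0.043 ± 0.46 with all UK libraries, not past the threshold, and -0.87 ± 0.052 without UK replicate 5, which passed it. TXNDC16 rose in TGFb over FB (0.75 ± 0.059), in UK over TGFb (0.91 ± 0.24 with all UK libraries and 1.10 ± 0.051 without UK replicate 5) and in UK over Trog (0.98 ± 0.24 with all UK libraries and 1.17 ± 0.056 without UK replicate 5), the last lost with library totals alone (0.55, edgeR BH-adjusted p = 0.1105). TXNDC15 fell in Trog over TGFb (-0.77 ± 0.052) and rose in UK over Trog (1.44 ± 0.27 with all UK libraries and 1.07 ± 0.057 without UK replicate 5). In Trog over TGFb it was -0.091 with library totals alone, not past the threshold (edgeR BH-adjusted p = 0.112). TXNDC9, which works with the chaperonin that folds actin and tubulin, fell in TGFb over FB (-0.64 ± 0.058). Without UK replicate 5, TXNDC9 fell in UK over TGFb (-0.39 ± 0.075) and in UK over Trog (-0.42 ± 0.076). With all UK libraries these were -0.097 ± 0.23 and -0.13 ± 0.23, not past the threshold. TXNL1, bound to the proteasome, and TXNL4A, of the spliceosome, moved by at most 0.42 in size in the comparisons with all libraries. Without UK replicate 5, TXNL1 fell in UK over TGFb (-0.44 ± 0.054) and in UK over Trog (-0.28 ± 0.057). TXNL4A fell in both as well (-0.32 ± 0.080 and -0.35 ± 0.084). With all UK libraries TXNL4A had been 0.41 ± 0.43 and 0.38 ± 0.43, not past the threshold. TXNDC2, a sperm protein, averaged 0.866 ± 0.15 CPM in TrogGW and 0.227 ± 0.074 CPM in TGFb (SD, n = 5 each). TXNDC8, another sperm protein, had at most 2 counts over any group and was not tested. GLRX5, the mitochondrial glutaredoxin of iron-sulfur cluster assembly, passed the threshold in TGFb over FB (-0.26 ± 0.083) and in none of the other 5 comparisons, where the values with all libraries ran from -0.045 to 0.39. Without UK replicate 5, GLRX5 was -0.036 ± 0.10 in UK over TGFb and 0.0092 ± 0.10 in UK over Trog, not past the threshold.

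NRF2 regulators and target enzymes outside the members were looked at beside them, 13 of 20 listed and all tested. MAFF, NQO1, HMOX1, FTL, CBR1, OSGIN1 and TRIM16 were listed but not analysed here. The 13 pool targets with genes that restrain NRF2, such as KEAP1, so their counts and median give no direction of the pathway. In TrogGW over TGFb 10 rose and 2 fell, in Trog over TGFb 10 rose and 2 fell, in UK over TGFb 7 rose and 2 fell, and in TrogGW over Trog 5 rose and 6 fell. Without UK replicate 5, 9 rose and 3 fell in UK over TGFb. With library totals alone, 11 rose and 1 fell in TrogGW over TGFb, 12 rose and 1 fell in Trog over TGFb, and 6 rose and 3 fell in TrogGW over Trog. These counts and those of the next lists stand against the shares of all tested genes called, which were 85.7% in TrogGW over TGFb, 81.7% in Trog over TGFb, 32.1% in UK over TGFb (71.2% without UK replicate 5) and 69.5% in TrogGW over Trog. The median log2 fold change of the 13 was 0.97 in TrogGW over TGFb and 0.69 in Trog over TGFb, where that of all tested genes was 0.081 and 0.045. SQSTM1, which frees NRF2 from KEAP1, rose by 4.54 ± 0.13 in TrogGW over TGFb, by 2.82 ± 0.063 in Trog over TGFb and by 1.72 ± 0.11 in TrogGW over Trog. FTH1, the ferritin heavy chain, rose by 2.84 ± 0.12 in TrogGW over TGFb. EPHX1, microsomal epoxide hydrolase, rose by 3.85 ± 0.16 in UK over TGFb (3.74 ± 0.078 without UK replicate 5). UGDH, which makes UDP-glucuronate, fell in TrogGW over TGFb (-1.03 ± 0.060). The message of NRF2 itself, NFE2L2, fell by 0.38 ± 0.062 in TrogGW over Trog.

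Genes that supply NADPH, 12 of 15 listed and all tested, were divided: 4 rose and 7 fell in TrogGW over TGFb, 5 rose and 5 fell in Trog over TGFb and 3 rose and 1 fell in UK over TGFb. Without UK replicate 5, 3 rose and 7 fell in UK over TGFb, and with library totals alone, 10 rose and 1 fell in TrogGW over TGFb and 10 rose and 1 fell in Trog over TGFb. TALDO1 of the pentose phosphate pathway rose in TrogGW over TGFb (2.06 ± 0.069) and NNT, the mitochondrial transhydrogenase, fell (-1.61 ± 0.050). Of 15 tested genes of glutathione breakdown, cysteine supply and the glyoxalases, 6 rose and 8 fell in TrogGW over TGFb and 5 rose and 8 fell in Trog over TGFb. Scaled by library totals alone, 8 rose and 6 fell in TrogGW over TGFb and 7 rose and 4 fell in Trog over TGFb. CHAC1, which cleaves glutathione in the cytosol and is a target of the ATF4 stress response, rose by 3.91 ± 0.18 in TrogGW over TGFb and by 1.40 ± 0.10 in TrogGW over Trog. GLO1, which uses glutathione to clear methylglyoxal, fell in TrogGW over TGFb (-1.66 ± 0.049). Of 7 tested genes for superoxide, hydrogen peroxide and oxidised methionine, 2 rose and 5 fell in TrogGW over TGFb, and 3 rose and 3 fell with library totals alone. The mitochondrial superoxide dismutase SOD2 rose in TrogGW over TGFb (2.67 ± 0.079), Trog over TGFb (3.59 ± 0.088) and UK over TGFb (2.60 ± 0.29, and 2.82 ± 0.066 without UK replicate 5). The methionine sulfoxide reductase MSRB1, a selenoprotein, fell in TrogGW over TGFb (-3.39 ± 0.061) and Trog over TGFb (-3.62 ± 0.065).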

How the data were processed

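The 25 libraries were made from polyadenylated RNA with a stranded kit, per the labels' protocols. The authors deposited 1 table of raw read counts per sample, with 13949 gene symbols. Tools listed per the submitters' processing notes are Salmon 1.5.2, STAR 2.7.9a, featureCounts, Subread 2.0.1 and fastp 0.23.1; the role of each, the genome build, the annotation and the strand setting are not given in the sources used here. All 42 members were found by symbol in RefSeq's cat gene table (assembly F.catus_Fca126_mat1.0), which was used for names only, so no coordinates or sequences are given.

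The counts went into edgeR 4.0.16 (R 4.3.3, limma 3.58.1). TMM factors and the filterByExpr filter, with a minimum count of 10 and a minimum total of 15, were set over all 25 libraries and left 10699 genes. Each comparison was fitted on the 10 libraries of its 2 groups, so that UK replicate 5 enters the spread of UK comparisons only, and tested with the quasi-likelihood F test without a replicate block. Adjustment was by BH over all tested genes, with calls under 0.05. The SE was obtained from the fold change and its F statistic (its absolute value over √F). CPM used the TMM-scaled totals. DESeq2 1.42.0 was an alternative. Simulated counts with known changes were used to test the code. The lowest chi-square per degree of freedom between 2 libraries of a group was 3.22, so no library was a copy of another. Depth was 14.8 to 25.2 M counts per library, and floors cover counting error only.

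In every comparison the rule for named genes takes GCLC, GCLM, GSS, GSR, TXNRD1 and TXNIP. It adds the 8 called members with the highest and the 8 with the lowest log2 fold change whose higher group averaged at least 1 CPM. The text gives most of their fold changes, and the heat map shows all of them. Values of every library are given for GCLC, GCLM, GSS, GSR, TXNRD1 and TXNIP and for the 4 highest and 4 lowest, and the remaining members are described by role. Of the other lists, up to 2 genes a direction with the lowest p are named. The members, lists and tests were chosen with earlier results of these data known. Figures were drawn with matplotlib 3.10.9.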

Additional observations from a re-analysis of the deposited data

Results flagged for a closer look

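For the 29 members that the rule for named genes selects, in 145 groups of 5 libraries, the highest or lowest library was compared with its neighbour by Dixon's gap ratio, whose critical value for 5 values is 0.71. It was passed 25 times, and chance passes it in about 1 in 20 groups. UK replicate 5 gave 20 of them, 18 as the highest UK library and 2 as the lowest. By name, it held GPX4 at 608 CPM against 150.4, GPX8 at 140.3 CPM against 47.2, GSS at 132 CPM against 77.5, GSTK1 at 287 CPM against 155 and GSTM3 at 423 CPM against 116 CPM in the next UK library. Next by name stood GSTP1 at 462 CPM against 163, GSTZ1 at 46.7 CPM against 22.7, MGST1 at 1015 CPM against 301, MGST2 at 81.8 CPM against 22.0 and MGST3 at 101 CPM against 47.0 CPM in the next UK library. It further held PRDX1 at 8423 CPM against 2606, PRDX2 at 302 CPM against 123, PRDX4 at 776 CPM against 281, PRDX6 at 615 CPM against 300.5 and TXNDC15 at 242 CPM against 106 CPM in the next UK library. The last by name were TXNDC17 at 292 CPM against 62.7, TXNDC5 at 1399.8 CPM against 1064 and TXNDC9 at 79.8 CPM against 42.8 CPM in the next UK library. It was lowest for TXNDC16, at 52.7 CPM against 133 CPM in the next UK library, and for TXNRD1, at 89.2 CPM against 245 CPM in the next UK library. Its values enter every UK result given with all libraries, and the results without UK replicate 5 stand beside them. The other 5 were single libraries of other groups. GSTM3 was highest in TGFb replicate 4, at 42.2 CPM against 33.1 CPM in the next library. MGST1 was highest in TGFb replicate 1, at 174 CPM against 155 CPM in the next library. MGST3 was highest in TGFb replicate 4, at 60.3 CPM against 55.7 CPM in the next library. TXNDC5 was highest in TrogGW replicate 1, at 594 CPM against 536 CPM in the next library. TXNRD3 was highest in TrogGW replicate 1, at 9.68 CPM against 6.97 CPM in the next library.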

How the results depend on the processing

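Alternatives were 1 fit of all 25 libraries, 1 fit of 24 libraries without UK replicate 5, library totals as the only scaling, RLE factors, no filter, a minimum count of 50, DESeq2, a block for the replicate number, and each library left out in turn. The number of members called moved by over 1.5 times in 2 kinds of case. TGFb over FB had 29 members called, and 16 (6 higher, 10 lower) in the fit of all 25 libraries, which shares 1 estimate of the spread with UK replicate 5. UK over TGFb had 16, and 31 (15 higher, 16 lower) in the 24-library fit and 32 without UK replicate 5. UK over Trog had 18, and 32 (20 higher, 12 lower) in the 24-library fit and 31 without it. Leaving out each library gave 29 to 31 members in TGFb over FB, 28 to 30 in Trog over TGFb, 32 in every case in TrogGW over TGFb, 27 to 31 in TrogGW over Trog, 14 to 32 in UK over TGFb and 16 to 31 in UK over Trog. With library totals alone, the median over all genes shifted, on the log2 scale, by 0.86 in TrogGW over TGFb, 0.68 in Trog over TGFb, 0.23 in UK over TGFb, 0.18 in TrogGW over Trog, -0.45 in UK over Trog and -0.37 in TGFb over FB. The splits of members into higher and lower became 28 and 9, 28 and 6, 16 and 1, 13 and 13, 8 and 11, and 7 and 26 in the same order. Under it 9 of the 32 called members turned in TrogGW over TGFb, 9 of 29 in Trog over TGFb, 2 of 30 in TrogGW over Trog, 1 of 18 in UK over Trog and 4 of 29 in TGFb over FB, and the report names them. Among the genes that the rule names in each comparison, called or not, the values that changed sign under it were GSS (-0.14) and TXNRD1 (-0.14) in TGFb over FB, MGST1 in Trog over TGFb (0.018), GSS in TrogGW over TGFb (0.77), and GSS (0.070) and GSR (0.00082) in TrogGW over Trog. GCLM in TrogGW over Trog and GSS in Trog over TGFb, both near 0, also changed sign: GCLM with RLE factors (-0.00037) and without 1 library (-0.025 to 0.039), GSS without 1 library (-0.030 to 0.052). DESeq2 gave no adjusted p for 6 members in UK over TGFb and 5 in UK over Trog, and these are left out. Same-numbered libraries deviated together at correlations of -0.31 to 0.48, not above 0.1 in every pair, and at most 2 of 5 libraries correlated best with their own number, so the numbers were taken as names only. The replicate block gave 32 members in TrogGW over TGFb, 29 in Trog over TGFb, 13 in UK over TGFb (12 higher, 1 lower), 30 in TrogGW over Trog, 16 in UK over Trog and 29 in TGFb over FB. Called members it left past an edgeR BH-adjusted p of 0.05 were GCLM (0.0586), TXNDC11 (0.0866) and TXNDC12 (0.166) in UK over TGFb, and TXNDC12 and TXNRD2 in UK over Trog. Of the named values under all alternatives, 1827 kept their direction and side of the threshold, 37 lost the threshold, 10 gained it and 13 changed sign. The cause of these moves was not tested. At 14.8 to 25.2 M counts, GPX2, GPX5, GPX6 and TXNDC8 were too low to test.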

Other observations

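Disulfide isomerases and oxidases of the endoplasmic reticulum outside the members, 15 of 17 listed and all tested, were counted in the same way: 11 rose and 1 fell in TGFb over FB, with PDIA4 at 0.89 ± 0.052 and QSOX1 at 0.78 ± 0.046. With library totals as the only scaling, 9 rose and 4 fell in that comparison. Of all tested genes 68.2% were called there, 32.8% higher and 35.4% lower. In TrogGW over Trog 12 of the 15 fell, against 69.5% of all tested genes called and 35.2% lower, and the median log2 fold change was -0.76, where that of all tested genes was -0.0024. PDIA4 (-1.93 ± 0.11) and ERP29 (-0.91 ± 0.056), a chaperone of the same compartment, fell in that comparison. In UK over TGFb 5 fell with all UK libraries and 1 rose and 11 fell without UK replicate 5, against 32.1% and 71.2% of all tested genes called. Under library totals alone, 3 rose and 4 fell with all UK libraries. ERO1A, the oxidase that feeds the isomerases, fell by 2.47 ± 0.092 in UK over TGFb (-2.44 ± 0.058 without UK replicate 5). CRELD2, an isomerase induced by stress of this compartment, rose in Trog over TGFb (2.996 ± 0.10) and fell in UK over Trog (-4.26 ± 0.32, and -4.63 ± 0.13 without UK replicate 5).

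Selenoproteins and the genes that make them, 19 of 23 listed and 18 tested, were divided: 10 rose and 7 fell in TrogGW over TGFb, 9 rose and 6 fell in Trog over TGFb and 8 rose and 5 fell in TGFb over FB. Of all tested genes 85.7%, 81.7% and 68.2% were called in these comparisons. With library totals alone, 14 rose and 3 fell in TrogGW over TGFb, 14 rose and 2 fell in Trog over TGFb and 1 rose and 11 fell in TGFb over FB. SELENOW (-1.98 ± 0.093) and SELENOM (-1.68 ± 0.059) fell in TrogGW over TGFb, while SCLY, which recovers selenium from selenocysteine, rose by 1.79 ± 0.098. SEPHS1 fell in TGFb over FB (-0.75 ± 0.058) and rose in Trog over TGFb (1.001 ± 0.055).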
